A study of Mus musculus with 32 samples.

Results

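Control tissue from the proximal ends of the mandible and maxilla of mouse embryos was compared on 8 of the 32 arrays of a study of jaw development. The 4 arrays titled control Alk5 mandible proximal were set against the 4 titled control Alk5 maxilla proximal, over all genes measured. All embryos were of C57B6 background at embryonic day 13.5, and total RNA was hybridised to Affymetrix mouse arrays. Litters came from Wnt1cre;Alk5fl/+ mice crossed to Alk5fl/fl mice, and each jaw was cut into a distal and a proximal end. Alk5 is the type I TGF-beta receptor, and Wnt1-Cre acts in neural crest cells and in the dorsal neural tube. The mutants, recognised by cleft palate and a calvarial defect, gave the 4 proximal mandible and 4 proximal maxilla arrays used below for comparison. The controls were littermates without these defects, and which of the Cre and floxed alleles they carried is not stated, so some may be heterozygous. The labels do not say whether arrays of a group came from separate embryos or from pools. The p-values thus reflect only how much these arrays varied, and some of that may be technical variation.

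The mandible and the maxilla both grow from the first pharyngeal arch and are filled mainly by neural crest mesenchyme. In the mandibular part, endothelin signalling switches on Dlx5 and Dlx6, homeobox genes that in turn act through Hand2 to specify a lower jaw, and without this signal the tissue takes on an upper jaw form. The muscles of mastication arise from mesoderm that enters the arch and come to lie around the proximal mandible. The maxillary side forms the palatal shelves and lies next to the nasal cavity, with its olfactory epithelium, and the eye. In bulk tissue of this kind, fewer cells of a type and less RNA per cell cannot be told apart.

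Values are log2 expression levels made by RMA, and differences are given as mandible minus maxilla with the standard error of the fit. Of 18193 genes with a probe set of their own, 13705 passed a filter on dim signal that used all 32 arrays, and the probe set with the highest mean stood for its gene. Calls are genes with an adjusted p below 0.05 from limma, with Benjamini-Hochberg adjustment over the 13705 genes. Differences that involve a group below the filter level, which was 6.66 to 6.86 depending on the array, are compressed, and their sizes are approximate.

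Several arrays stood apart from their group. Both number 2 arrays had high Xist (13.53 and 14.06) and the Y-linked gene Eif2s3y at 3.41 and 3.30, while maxilla array 3 had both Xist (10.72) and Eif2s3y (10.03) and the other 5 arrays had Xist at 6.46 to 6.84. Maxilla array 3 was also the maxilla array nearest to the mandible for muscle genes, and it held the highest Hes5, a Notch target of neural progenitors (10.20, against 6.22 to 6.62). Maxilla array 4 had the highest neuron and ganglion markers and low Otx2, Sp8, Lhx2 and Pitx1. Mandible array 1 lacked Hoxa2 signal and carried the highest bone genes. The number 1 arrays read 13.85 and 13.76 for the Cre hybridisation control, against 12.34 to 12.81. Arrays of 1 group correlated at 0.962 to 0.993, and arrays of different jaws at 0.943 to 0.974.

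In all, 740 genes differed between the proximal jaws, 5.4% of those tested. Of these, 319 genes (2.33%) were higher in the mandible and 421 (3.07%) were higher in the maxilla. The balance depended on scaling, with 386 higher and 366 lower after each array was centred on its median, and 372 and 376 after quantile normalization was repeated. In the main fit the median difference was 0.887 among the 319 genes higher in the mandible and -0.925 among the 421 higher in the maxilla. In 135 genes the mandible was higher by over 1 log2 unit and in 189 the maxilla was, and by over 3 units in 16 and 13. For 609 of the called genes the 4 mandible arrays did not overlap the 4 maxilla arrays, 286 of them higher in the mandible. Over all genes tested, 1518 (11.1%) did not overlap, with the mandible above in 813 (5.93%) and the maxilla in 705 (5.14%). The means of the 319 genes higher in the mandible were 9.33 to 9.56 on the mandible arrays and 8.12 to 8.50 on the maxilla arrays, which describes the choice of these genes and is no test. Without maxilla arrays 3 and 4, 619 genes were called, 462 of them among the 740. Leaving out number 3 in every group gave the lowest count (267).

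**Figure D1:**
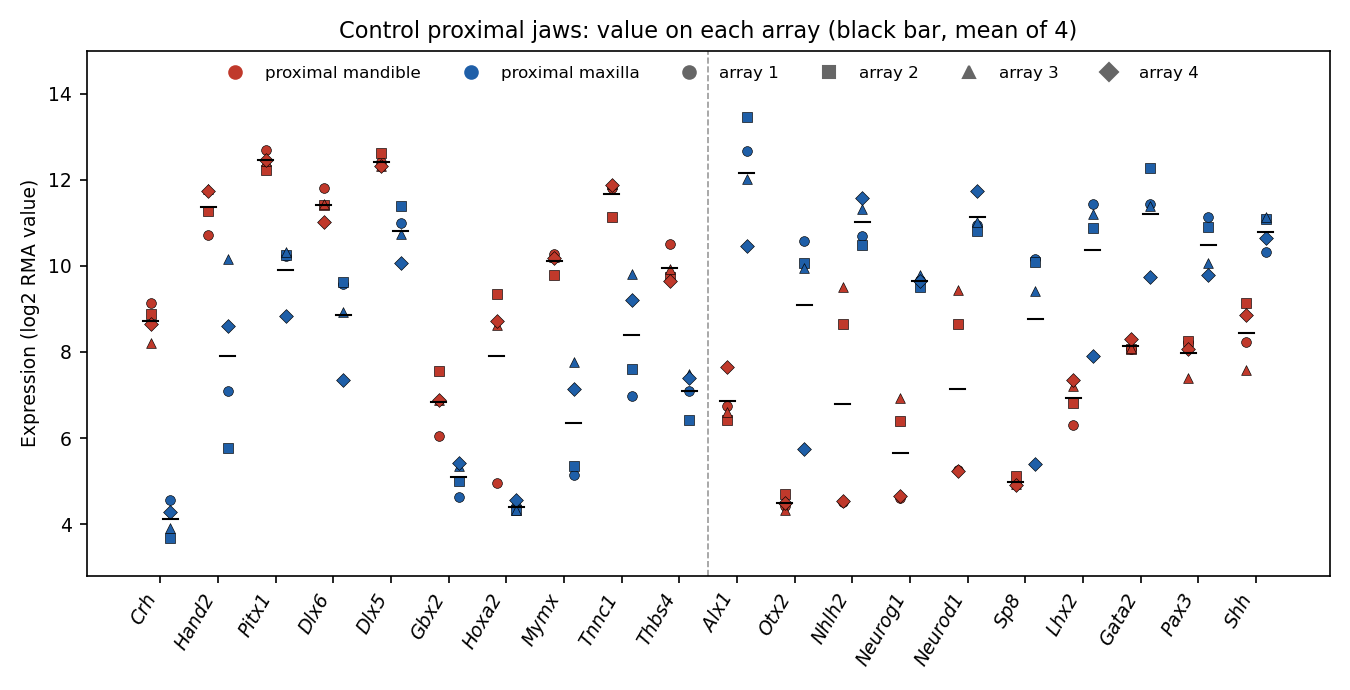
Expression in log2 RMA values (vertical axis) of 20 genes on each control proximal array, mandible in red and maxilla in blue, with the symbol giving the array number and the black bar the mean of 4 arrays. The 10 genes left of the dashed line were higher in the mandible and the 10 on the right were lower, and single arrays stand out, such as mandible array 1 for Hoxa2 (4.95) and maxilla array 4 for Otx2 (5.74).

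Part of the genes that specify a lower jaw, among them Hand2, Pitx1, Dlx5 and Dlx6, were higher in the proximal mandible. Of 18 such genes, 17 had a probe set of their own and 16 were tested. In the mandible 8 were higher and 0 were lower, against 2.33% higher and 3.07% lower over all genes tested. The median difference was 1.12 over the 16, against 0.01 over all genes tested. Their mean was 10.04, 10.21 and 10.03 on mandible arrays 1 to 3, with array 4 just below these, and 8.48 to 9.17 in the maxilla, so the groups did not overlap. The count was 5 without maxilla arrays 3 and 4, 4 without mandible array 1 as well, and 5 without number 3.

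Hand2, a basic helix-loop-helix factor downstream of Dlx5 and Dlx6, read 10.71, 11.27, 11.78 and 11.75 on mandible arrays 1 to 4. In the maxilla it read 7.10, 5.76, 10.17 and 8.60. All mandible arrays lay above all maxilla arrays, but maxilla array 3 was within 1 log2 unit of the lowest mandible array. The difference was 3.47 ± 0.53 (adjusted p = 0.000113), an 11.1-fold higher level in the mandible. Its other kept probe sets gave smaller differences, of 1.17 and 0.89, and the call was lost when the 8 compared arrays were fitted alone.

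Pitx1, a homeobox gene of the mandible and hindlimb, was at 12.22 to 12.70 in the mandible. It read 10.22, 10.25, 10.32 and 8.83 in the maxilla, with array 4 the lowest. The difference was 2.56 ± 0.30 (adjusted p = 4.15e-06), and a second probe set gave 2.59. Tbx4, a T-box gene that Pitx1 is known to act on in the hindlimb, was higher by 1.05 ± 0.24 (adjusted p = 0.00588).

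Among the Dlx homeobox genes, Dlx5 was at 12.32 to 12.62 in the mandible and at 11.00, 11.39, 10.75 and 10.07 in the maxilla. The groups did not overlap, and the difference was 1.62 ± 0.32 (adjusted p = 0.00207). Its neighbour Dlx6 differed more, by 2.55 ± 0.46 (adjusted p = 0.000712), from 11.02 to 11.80 in the mandible to 7.34 to 9.62 in the maxilla. The antisense RNA gene Dlx6os1 differed by 2.16 ± 0.56 (adjusted p = 0.0179). Its value on maxilla array 4 was 6.48, and without that array the difference was 1.41 (adjusted p = 0.0937). Without mandible array 2 it was 1.96 (adjusted p = 0.0686). Dlx5 did not pass without maxilla arrays 3 and 4 or without number 3.

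Dlx4 was at 7.81 to 8.57 in the mandible, while all 4 maxilla arrays, at 5.84 to 6.55, lay below the filter level. The difference was 2.02 ± 0.27 (adjusted p = 2.51e-05). The antisense gene beside it, Dlx4os, differed by 2.51 ± 0.28 (adjusted p = 2.78e-06). Dlx3 had non-overlapping groups, 9.44 to 9.69 against 7.36 to 9.15, but did not pass (1.31 ± 0.47, adjusted p = 0.12). Of the Dlx and Msx genes, 8 were tested, 3 were higher in the mandible and 0 lower (2.33% and 3.07% over all genes tested). Their median difference was 1.35. Dlx1 (1.38, adjusted p = 0.21) and Dlx2 (0.93, adjusted p = 0.0662) did not pass, and Msx1 and Msx2 differed by -0.23 and -0.11 (adjusted p = 0.941 and 0.982). For Dlx1 and Dlx2 maxilla arrays 3 and 4 read close to the mandible, at 10.61 to 10.78, and maxilla arrays 1 and 2 read 8.12 to 9.62.

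The antisense gene Dlx1as differed by 4.20 ± 0.93 (adjusted p = 0.00528). It was at 11.14 to 11.84 in the mandible and at 6.64, 4.63, 9.39 and 8.32 in the maxilla. The maxilla arrays spread over more than 4 log2 units, and the call was lost when number 2 was left out of every group and when the 8 compared arrays were fitted alone.

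Gbx2, a homeobox gene that depends on Dlx5 and Dlx6 in the arch, was at 6.04 to 7.56 in the mandible and at 4.63 to 5.42 in the maxilla, 1.74 ± 0.27 apart (adjusted p = 0.000139). Gsc, a homeobox gene needed for lower jaw and middle ear parts, differed by 0.93 ± 0.26 (adjusted p = 0.0303). The call for Gsc was lost without any single array other than maxilla array 1 or 3 (adjusted p up to 0.115). The remaining tested members did not pass. Edn1, the endothelin ligand, differed by 0.13 (adjusted p = 0.852), Hand1 by 0.12 (adjusted p = 0.896) and Cited1 by 0.21 (adjusted p = 0.922). Bmper differed by 0.38 (adjusted p = 0.542), Unc5c by -0.28 (adjusted p = 0.72), Rspo2 by -0.15 (adjusted p = 0.868) and Rgs5 by 0.04 (adjusted p = 0.993).

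Crh, which encodes corticotropin-releasing hormone, had the largest difference of any gene higher in the mandible. It read 9.14, 8.88, 8.20 and 8.64 in the mandible and 4.56, 3.68, 3.92 and 4.28 in the maxilla. All maxilla values lay below the filter level, and the difference of 4.61 ± 0.54 (adjusted p = 4.15e-06) was 24.4-fold on this scale.

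Hox genes mark the second arch and more posterior levels and are off in the first arch, and 4 of them were higher in the mandible samples. Of 23 Hox genes, 19 had their own probe set and 11 passed the filter. All 11 differences were above 0, with a median of 0.74, and Hoxa2, Hoxb2, Hoxc4 and Hoxc5 were those called. The filter kept only genes bright on some arrays, and dimmer Hox genes were dropped. A Hox gene that is off elsewhere could thus be kept because of its mandible signal. The sign count and the median may partly reflect this choice and are no test of the Hox genes as a set. Hoxa2, which specifies second arch identity, read 4.95, 9.34, 8.62 and 8.73 in the mandible and 4.32 to 4.56 in the maxilla. Mandible array 1 was thus near the maxilla, and the other 3 were about 4 units higher (3.50 ± 0.81, adjusted p = 0.00726). Fitted on the 8 compared arrays alone, Hoxa2 did not pass.

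The Hox list mean was 6.93 on mandible array 1, 8.11 to 8.42 on mandible arrays 2 to 4 and 6.39 to 7.16 in the maxilla. Without number 1, 7 of the 11 were called, and without number 2, 3 or 4 the count was 0. Hoxb2 differed by 1.43 (adjusted p = 0.0221), Hoxc4 by 1.16 (adjusted p = 0.0396) and Hoxc5 by 0.74 (adjusted p = 0.00822). Without mandible array 4 these became 1.07, 0.78 and 0.58 (adjusted p = 0.116, 0.202 and 0.0504). Other single arrays also ended the calls for Hoxb2 and Hoxc4. These were mandible array 3 (adjusted p = 0.0926 and 0.169) and maxilla array 1 (adjusted p = 0.0751 and 0.0959) for both, and maxilla arrays 2, 3 and 4 for Hoxc4 (adjusted p = 0.0754, 0.0867 and 0.0501).

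Skeletal muscle genes formed the largest group higher in the mandible. Of 32 sarcomere and muscle genes, 30 were tested, 24 were higher and 0 were lower (2.33% and 3.07% over all genes tested). All 30 differences were above 0, and the median was 2.70. The list mean was 10.07, 9.33, 10.05 and 9.95 on mandible arrays 1 to 4 and 6.92, 6.97, 8.52 and 7.80 on maxilla arrays 1 to 4. The groups did not overlap. Maxilla arrays 1 and 2 lay near the filter level, and maxilla array 3 was the highest of its group. The count was 14 without number 1 and 13 without number 3.

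The upstream stretches of 5 muscle genes are shown here because their levels moved together and the letters of known muscle factor sites can be found in them. They are the 150 bases before the RefSeq start of each gene (build GRCm38.p6), 5′ to 3′ on the strand of the gene, and were chosen after the values were seen. Des differed by 1.64 ± 0.33 (adjusted p = 0.00208) and Acta1 by 2.79 ± 0.63 (adjusted p = 0.0059), and the values of the others stand below. Capitals mark matches to CAGCTG, an E-box bound by myogenic helix-loop-helix factors, to the CArG box of serum response factor or to the MEF2 site.
Mylpf, fast skeletal myosin regulatory light chain, chr7:127211458-127211607, plus strand: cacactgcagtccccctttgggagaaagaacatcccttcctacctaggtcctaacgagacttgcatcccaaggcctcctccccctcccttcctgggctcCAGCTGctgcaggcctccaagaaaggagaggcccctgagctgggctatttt
Des, desmin, chr1:75360142-75360291, plus strand: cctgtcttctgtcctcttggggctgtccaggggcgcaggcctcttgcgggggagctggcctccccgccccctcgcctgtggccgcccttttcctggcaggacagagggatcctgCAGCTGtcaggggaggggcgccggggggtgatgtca
Chrna1, acetylcholine receptor alpha subunit, chr2:73580339-73580488, minus strand: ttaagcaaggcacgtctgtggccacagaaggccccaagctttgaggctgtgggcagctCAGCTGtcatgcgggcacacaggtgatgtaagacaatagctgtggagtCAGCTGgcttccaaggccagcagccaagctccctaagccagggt
Casq2, calsequestrin, chr3:102086265-102086414, plus strand: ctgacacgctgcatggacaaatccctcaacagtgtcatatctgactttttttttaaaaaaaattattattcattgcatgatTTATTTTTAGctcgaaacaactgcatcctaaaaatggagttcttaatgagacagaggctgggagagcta
Acta1, skeletal muscle actin, chr8:123894776-123894925, minus strand: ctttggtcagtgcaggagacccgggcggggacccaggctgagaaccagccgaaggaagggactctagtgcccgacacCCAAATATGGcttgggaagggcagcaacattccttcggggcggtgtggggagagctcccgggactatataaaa
Over the 250 bases before the start, CAGCTG occurred in 9 of the 21 called sarcomere genes with a promoter entry (42.9%), against 12.8% of all 27025 RefSeq promoters and 11.9% of those of tested genes. A MEF2 site occurred in 4 (19.0%, against 3.01%) and a CArG box in 2 (9.52%, against 1.4%), both strands being searched. CAGATG, another E-box searched, occurred in 3 (14.3%, against 14.5% of all promoters and 10.2% of those of tested genes). Among promoters of tested genes, a MEF2 site occurred in 1.58% and a CArG box in 1.15%. These are counts of letters and not of bound sites, and the called genes share their tissue.

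Among the myogenic regulators, the fusion genes Mymx and Mymk and the transcription factors Myod1, Myog and Tcf21 were higher in the mandible. Mymx, the fusion peptide myomixer, was at 9.78 to 10.28 in the mandible and at 5.14, 5.34, 7.77 and 7.13 in the maxilla, 3.77 ± 0.81 apart (adjusted p = 0.00373). Myomaker, Mymk, differed by 2.06 ± 0.34 (adjusted p = 0.000284). Myod1, which commits cells to the muscle fate, was at 10.35 to 11.14 against 7.34 to 8.88 (2.76 ± 0.61, adjusted p = 0.00534). Myog, which drives differentiation, differed by 3.15 ± 0.81 (adjusted p = 0.0175), from 11.52 to 12.08 in the mandible to 7.05, 8.23, 10.13 and 9.32 in the maxilla. The call for Myog was lost without maxilla array 1 or 2 (adjusted p = 0.0776 and 0.0546). Tcf21, an early regulator of head muscle, differed by 2.31 ± 0.51 (adjusted p = 0.00532), with all 4 maxilla arrays below the filter level. Of the 17 regulators tested, 5 were higher and 2, Eya2 and Pax3, were lower (2.33% and 3.07% over all genes tested). Their median was 0.30.

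Thin filament genes differed by about as much. The cardiac and embryonic troponin T gene Tnnt2 was at 9.65 to 10.63 in the mandible and at 5.70, 5.72, 8.39 and 7.40 in the maxilla (3.46 ± 0.78, adjusted p = 0.00613). Tnnc1, slow troponin C, read 11.82, 11.13, 11.90 and 11.88 against 6.98, 7.61, 9.82 and 9.21 (3.28 ± 0.83, adjusted p = 0.0148). Tnnc2, fast troponin C, differed by 3.35 ± 0.88 (adjusted p = 0.0202). In both jaws the order of the arrays was similar for these genes, with mandible array 2 the lowest of its group and maxilla array 3 the highest of its own.

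Of the thick filament and scaffold genes, Myl1 differed by 3.39 ± 0.85 (adjusted p = 0.0147), Mylpf by 3.17 ± 0.81 (adjusted p = 0.0159) and the perinatal myosin gene Myh8 by 3.05 ± 0.66 (adjusted p = 0.00398). Klhl41, which stabilises the thin filament, differed by 3.08 ± 0.57 (adjusted p = 0.00106) and Actn2, an alpha-actinin of the Z disc, by 2.85 ± 0.67 (adjusted p = 0.00904). Casq2, a calcium store protein, differed by 2.34 ± 0.44 (adjusted p = 0.00119) and Mybpc1, slow myosin-binding protein C, by 2.12 ± 0.33 (adjusted p = 0.00015). Myl4 (3.08, adjusted p = 0.0485) and Ttn (2.98, adjusted p = 0.0495) were close to the threshold and failed without any 1 array except maxilla array 3 (adjusted p up to 0.159 and 0.164). Maxilla array 1 also decided the calls of Myl1 (adjusted p = 0.0723 without it), Mylpf (0.0614), Tnnc1 (0.0637) and Tnnc2 (0.083). Maxilla array 2 decided those of Mylpf (adjusted p = 0.0644 without it), Tnnc1 (0.0562) and Tnnc2 (0.0681), and mandible arrays 1 and 3 that of Tnnc2 (0.0601 and 0.0553).

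Of 9 tested genes of the nerve-muscle synapse, 4 were higher in the mandible and 0 lower, with a median of 0.36. The shares over all genes tested were 2.33% and 3.07%. The acetylcholine receptor subunits Chrna1 (2.26 ± 0.32, adjusted p = 4.85e-05), Chrng (1.75 ± 0.26, adjusted p = 0.000108) and Chrnb1 (1.55 ± 0.36, adjusted p = 0.00886) were among the 4. Rapsn, which clusters the receptors, was the fourth (1.57 ± 0.22, adjusted p = 3.21e-05). Chrna1 read 9.03 to 9.89 in the mandible and 6.98 to 7.58 in the maxilla, so its maxilla arrays lay within 1 log2 unit. Other muscle genes among the 20 largest differences were Smpx (3.18), Tceal7 (3.08) and Synpo2l (2.86).

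Some connective tissue and joint genes were higher in the mandible. Thbs4, a matrix protein of tendon and muscle attachments, was at 9.66 to 10.51 in the mandible and at 6.41 to 7.48 in the maxilla, 2.87 ± 0.32 apart (adjusted p = 2.49e-06). Kera, a small leucine-rich proteoglycan, differed by 2.06 ± 0.50 (adjusted p = 0.0107), and by 1.79 without maxilla array 2 (adjusted p = 0.0537). Of 12 tendon genes these were the 2 called, where 2.33% of all genes tested were higher, with a median of 0.46 over the list. Without maxilla arrays 3 and 4 the count was 1, Kera being lost. Gdf5, a growth factor of forming joints, was at 8.61 to 9.36 against 7.33 to 7.59 (1.64 ± 0.21, adjusted p = 1.48e-05). Otor, expressed in cartilage of the ear region, differed by 1.59 ± 0.33 (adjusted p = 0.00315), a call lost without maxilla arrays 3 and 4.

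Cartilage and bone genes did not separate the jaws. Of 21 cartilage genes, 0 were higher and 1 was lower, Sox5 (-0.93, adjusted p = 0.0202), with a median of -0.25. Over all genes tested 2.33% were higher and 3.07% lower. Sox5 did not pass without mandible array 1 or 3 or maxilla array 1, 2 or 3 (adjusted p = 0.0797, 0.0558, 0.0759, 0.0669 and 0.0629). Both number 1 arrays had high cartilage means (10.62 and 10.83, against 9.19 to 9.53). The bone mean was 11.07 on mandible array 1 and 8.15 to 8.91 on the other 7, and Dlx5 was the 1 called member of 7. The osteoblast transcription factor gene Sp7 read 11.49 on mandible array 1 and 8.82 to 9.16 on the other mandible arrays.

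The largest difference of all was in Alx1, a homeobox gene of the frontonasal and maxillary mesenchyme whose loss causes facial clefts. It read 12.68, 13.46, 12.01 and 10.47 in the maxilla and 6.74, 6.42, 6.60 and 7.65 in the mandible. The difference was -5.30 ± 0.47 (adjusted p = 9.47e-08), a 39.4-fold higher level in the maxilla, although 3 of the mandible arrays were near or below the filter level. A second probe set gave -5.25, and Alx1 passed in each alternative setting tried and without each single array.

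Pax3, a paired box gene of neural crest and muscle precursors, was at 9.79 to 11.14 in the maxilla and 7.39 to 8.25 in the mandible (-2.49 ± 0.52, adjusted p = 0.00296). Its other probe sets gave -2.64 and -2.63. The myogenic genes Myod1 and Myog went the other way in the same samples. Uncx, another homeobox gene, read 8.70, 7.50, 8.62 and 4.59 in the maxilla and 4.26 to 4.63 in the mandible (-2.88 ± 0.53, adjusted p = 0.000905), so maxilla array 4 lay with the mandible, and the call was lost when the 8 compared arrays were fitted alone. Pitx3 was higher in the mandible by 1.42 ± 0.18 (adjusted p = 1.57e-05). For Pax6 the chosen probe set showed no call (0.09, adjusted p = 0.827), while a second, dimmer on average, gave -3.21, so the direction for Pax6 depends on the probe set.

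Upper jaw genes were less uniform than the lower jaw list. Of 11 tested, 3 were lower in the mandible and 1 was higher (3.07% and 2.33% over all genes tested), with a median of 0.30. Tbx22, a T-box gene needed for the palate, was at 10.15 to 11.50 in the maxilla and at 8.45 to 9.04 in the mandible (-2.18 ± 0.48, adjusted p = 0.00496). Foxl2, a forkhead gene of the upper jaw and eyelid mesenchyme, was at 10.72 to 11.10 against 8.87 to 10.18 (-1.53 ± 0.36, adjusted p = 0.00862). A second Foxl2 probe set gave -0.17. Aldh1a3, which makes retinoic acid, read 10.96, 10.77, 10.71 and 8.38 in the maxilla and 7.82 to 8.84 in the mandible (-1.85 ± 0.44, adjusted p = 0.00981), and it too lost its call in the fit of the 8 compared arrays.

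Cyp26a1, which degrades retinoic acid, was the member higher in the mandible (0.93 ± 0.26, adjusted p = 0.0289). That call was lost without any single array other than mandible array 1 or maxilla array 4 (adjusted p up to 0.108). The others did not pass. Pantr1, a long noncoding RNA gene, differed by 0.30 (adjusted p = 0.844). Pou3f3 differed by 0.31 (adjusted p = 0.745), Nr2f1 by 0.78 (adjusted p = 0.29), Nr2f2 by 1.02 (adjusted p = 0.0568), Shox2 by 0.63 (adjusted p = 0.293), Irx5 by 0.16 (adjusted p = 0.937) and Jag1 by -0.28 (adjusted p = 0.345). Of the 16 palate genes tested, 2 were lower in the mandible, Tbx22 and Shh, and 0 were higher (3.07% and 2.33% over all genes tested). The 3 lower calls of the upper jaw list became 1 without number 2 and 0 without number 3. Without maxilla arrays 3 and 4, Foxl2 lost its call and the members called higher were 2.

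Of 17 forkhead genes tested, 5 were lower in the mandible and 0 were higher (3.07% and 2.33% over all genes tested). The median was -0.44, and 5 of the 17 differences were above 0. Foxf2, which acts in palate mesenchyme, was at 9.73 to 10.50 in the maxilla and 7.56 to 8.59 in the mandible (-1.96 ± 0.41, adjusted p = 0.00323). Foxd2 differed by -1.74 (adjusted p = 0.00281), Foxa1 by -1.67 (adjusted p = 0.0155) and Foxd1 by -1.12 (adjusted p = 0.0173). Foxa1 did not pass without mandible array 1 or 3 or maxilla array 1 (adjusted p = 0.0704, 0.0553 and 0.0823). Foxd1 did not pass without mandible array 1 or 3 or maxilla array 3 or 4 (adjusted p = 0.0732, 0.0876, 0.0564 and 0.0609). The count of 5 fell to 3 without mandible array 1 or 3, to 2 without maxilla arrays 3 and 4 together and to 0 without number 3.

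Several olfactory and forebrain-type transcription factors were lower in the mandible. Of 23 tested members of the forebrain, pituitary and olfactory list, 9 were lower and 1, Pitx1, was higher, with a median of -0.62. The shares over all genes tested were 3.07% and 2.33%. The list mean was 8.71 to 9.67 in the maxilla and 7.59 to 8.20 in the mandible. Otx2, a homeobox gene of the anterior head, read 10.59, 10.06, 9.95 and 5.74 in the maxilla and 4.33 to 4.69 in the mandible, the latter all below the filter level. The difference was -4.60 ± 0.62 (adjusted p = 2.81e-05).

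Maxilla array 4 was the lowest maxilla array for several of these genes. Sp8, a zinc finger factor of the nasal pit and forebrain, read 10.17, 10.10, 9.42 and 5.40 in the maxilla against 4.92 to 5.11 (-3.79 ± 0.66, adjusted p = 0.000533). Lhx2, needed for olfactory neurons, read 11.45, 10.88, 11.21 and 7.90 against 6.30 to 7.35 (-3.44 ± 0.52, adjusted p = 0.000108). Fezf1, a zinc finger factor of olfactory neurons, read 9.48, 9.55, 10.32 and 5.87 against 5.35 to 5.80 (-3.28 ± 0.58, adjusted p = 0.000582). Olig1 differed by -3.19 ± 0.56 (adjusted p = 0.00062) and Six3 by -2.06 ± 0.33 (adjusted p = 0.000216). In a fit of the 8 compared arrays alone, the count of 9 fell to 4, and Sp8 and Lhx2 were among the genes lost. Fezf1 and Olig1, which are outside this list, lost their calls in that fit too.

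Genes of developing neurons showed another order of arrays. Neurog1, a proneural factor of olfactory and cranial sensory neurons, was even across the maxilla arrays at 9.51 to 9.79. It read 4.61, 6.40, 6.94 and 4.65 in the mandible (-4.01 ± 0.42, adjusted p = 1.61e-06). Neurod1, which acts after it, read 10.81 to 11.74 in the maxilla and 5.25, 8.66, 9.44 and 5.24 in the mandible (-3.99 ± 0.64, adjusted p = 0.000227). Nhlh2 read 10.48 to 11.58 and 4.52, 8.64, 9.51 and 4.53 (-4.22 ± 0.78, adjusted p = 0.00095). Mandible arrays 2 and 3 thus read higher than arrays 1 and 4 for these genes, although for Neurog1 they were near the filter level. The mean of 24 neuron markers was 7.90 on mandible array 1 and 7.77 on array 4, above the filter level. Insm1, a zinc finger factor of newborn neurons, differed by -3.65 ± 0.36 (adjusted p = 6.69e-07) and passed in each alternative setting tried. A second probe set of Neurog1 gave -0.27. Neurod1 and Nhlh2 did not pass in the fit of the 8 compared arrays.

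Of 24 tested neuron markers, 11 were lower in the mandible and 0 higher (3.07% and 2.33% over all genes tested), with a median of -1.63. The list mean was 9.36, 9.04, 10.59 and 11.48 on maxilla arrays 1 to 4 and 7.90, 8.96, 9.56 and 7.77 on mandible arrays 1 to 4. The groups overlapped, and mandible array 3 was above maxilla arrays 1 and 2. The RNA-binding protein genes Elavl3 (-2.64 ± 0.43, adjusted p = 0.000258) and Elavl4 (-2.61 ± 0.51, adjusted p = 0.00181) and the microtubule regulator gene Stmn2 (-2.12 ± 0.44, adjusted p = 0.003) were among the called genes. Without maxilla arrays 3 and 4 the count was 1 lower and 2 higher, and it was 6 or 7 without maxilla array 3 or 4 or mandible array 1 or 4. Of 14 cranial sensory ganglion genes, 2 were lower, Neurod1 and Ret, and the list mean was 10.14 on maxilla array 4 and 7.43 to 8.72 on the other 7 arrays.

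**Figure D2:**
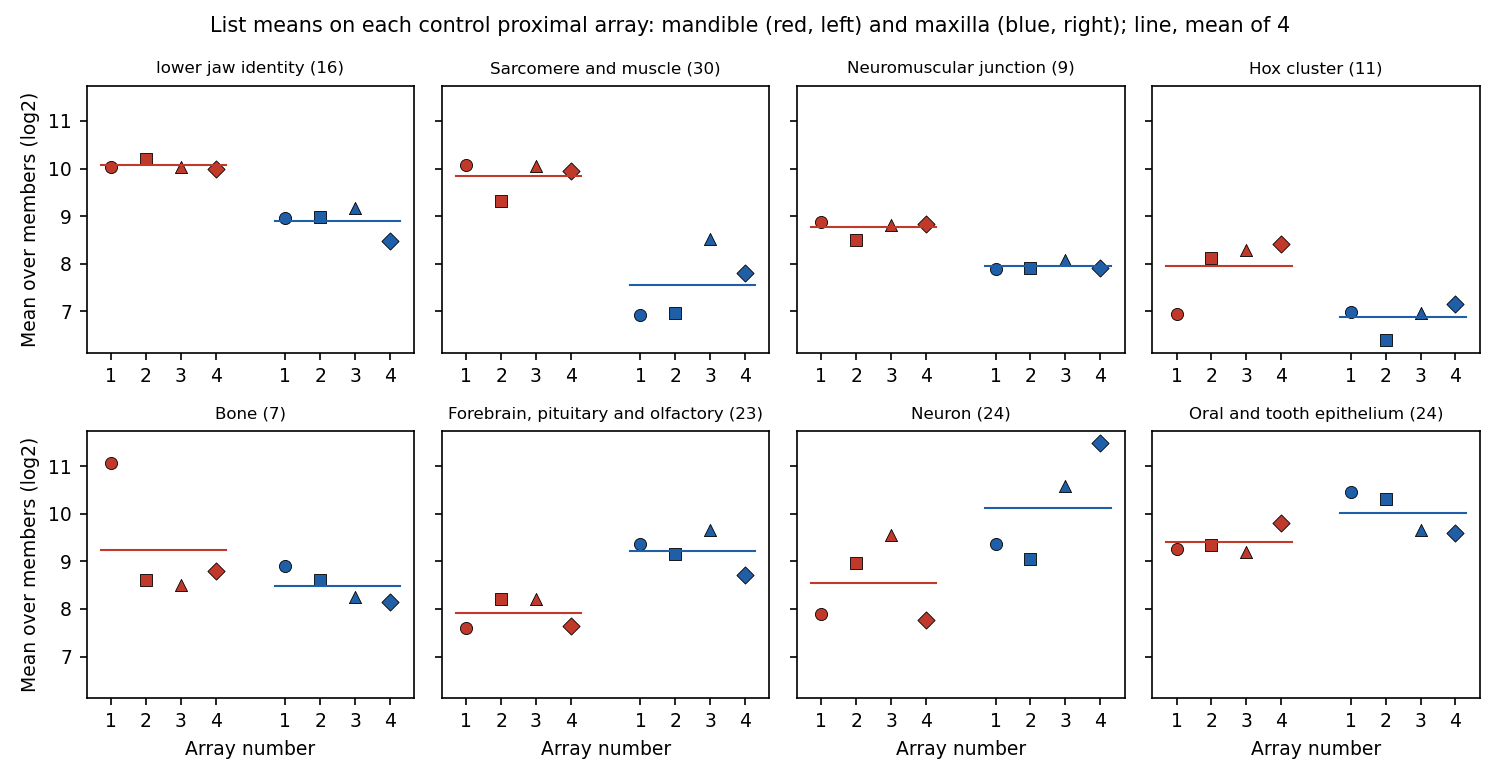
Mean log2 level over the tested members of 8 gene lists (vertical axis; number of members in brackets) on each control proximal array, mandible in red on the left and maxilla in blue on the right, with a line at the mean of 4 arrays. The lower jaw and sarcomere lists separate the jaws, the neuron list overlaps and is highest on maxilla array 4 (11.48), the Hox list is low on mandible array 1 (6.93) and the bone list is high there (11.07).

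The zinc finger factors Gata2 and Gata3 were lower in the mandible. Gata2 read 11.45, 12.27, 11.39 and 9.75 in the maxilla and 8.06 to 8.31 in the mandible, which varied little (-3.09 ± 0.34, adjusted p = 2.49e-06). Gata3 differed by -2.45 ± 0.42 (adjusted p = 0.000452). Dmrt3, a DM-domain factor, was at 8.57 to 10.30 against 6.18 to 6.92 (-2.93 ± 0.33, adjusted p = 2.49e-06). Sox2, a factor of neural and oral progenitors, was at 11.01 to 12.01 against 9.25 to 10.09 (-1.82 ± 0.25, adjusted p = 3.38e-05).

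Shh, the ligand secreted by the palatal ridges and tooth epithelium, was lower in the mandible. It read 10.32, 11.10, 11.13 and 10.64 in the maxilla and 8.23, 9.13, 7.59 and 8.85 in the mandible (-2.35 ± 0.37, adjusted p = 0.00015). The groups did not overlap, and a second probe set gave -0.77. Ptch1, its receptor and target, was lower too (-0.86 ± 0.16, adjusted p = 0.00107), at 12.70 to 13.07 against 11.63 to 12.56, but lost its call in the fit of the 8 compared arrays and with another choice of probe set. Gli1, another target, differed by -0.49 and did not pass (adjusted p = 0.171). Cdon, a co-receptor, was higher in the mandible by 0.71 (adjusted p = 0.0379), a call lost without any single array other than maxilla array 1 (adjusted p up to 0.129). Of the 16 hedgehog and Zic genes tested, Shh, Ptch1 and Cdon were the 3 called ones, where 5.4% of all genes tested were called.

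Of 24 epithelial genes tested, 7 were lower in the mandible and 0 higher (3.07% and 2.33% over all genes tested), with a median of -0.40. Simple-epithelium keratins were among the 7. Krt18 was at 9.63 to 11.54 in the maxilla and at 8.57 to 9.34 in the mandible (-1.67 ± 0.27, adjusted p = 0.000186). Krt8, its partner, differed by -1.58 ± 0.27 (adjusted p = 0.000509). The adhesion gene Epcam differed by -1.28 ± 0.20 (adjusted p = 0.000129), although a second probe set gave 0.09, and the tight junction gene Cldn7 by -1.71 ± 0.28 (adjusted p = 0.00024). The list mean was 9.20 to 9.81 in the mandible and 9.60 to 10.45 in the maxilla, and maxilla arrays 3 and 4 were both below mandible array 4. In the fit of the 8 compared arrays alone, 2 members were called, and Epcam, Krt8 and Krt18 were not. How much of the differences of other genes came with the neuronal and epithelial markers was not tested.

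Signalling families had few calls or 0 in each direction. Over all genes tested 2.33% were called higher and 3.07% lower, and some of these lists exceeded those shares. Of 21 TGF-beta pathway genes 0 were called in either direction, with a median of 0.02. Of 27 BMP genes 2 were higher, Gdf5 and Bmp2 (0.72, adjusted p = 0.022), and 2 lower, Id4 (-1.69, adjusted p = 8.8e-05) and Bmp7 (-0.51, adjusted p = 0.0473). Bmp2 failed without mandible array 1 or maxilla array 2, 3 or 4 (adjusted p = 0.115, 0.0737, 0.0765 and 0.0559), and Bmp7 failed without any of mandible arrays 1 to 3 or maxilla arrays 1 and 2 (adjusted p up to 0.182). Of 22 FGF genes 3 were higher and 1 lower. Fgfr4, a receptor of muscle precursors, was at 8.25 to 8.77 against 6.88 to 7.47 (1.33 ± 0.25, adjusted p = 0.0011), and the mesenchymal ligand gene Fgf7 was higher by 1.86 ± 0.41 (adjusted p = 0.00516). Fgf7 lost its call in the fit of the 8 compared arrays, without number 2 or 3, and without maxilla arrays 3 and 4 with or without mandible array 1. The inhibitor gene Spry4 was higher by 0.48 (adjusted p = 0.0432), a call lost without any single array other than mandible array 4 or maxilla array 1 (adjusted p up to 0.221). Fgf17 was lower by -1.21 (adjusted p = 0.0131), and -0.73 without maxilla array 3 (adjusted p = 0.0506). Without maxilla arrays 3 and 4, 1 FGF gene was higher and 3 were lower, and 1 BMP gene was higher, Bmp2 being lost.

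Of 19 Wnt ligands and R-spondins 1 was higher, Wnt11 (1.06, adjusted p = 0.0215; not called without mandible array 3 or 4 or maxilla array 2, adjusted p = 0.0692, 0.0798 and 0.123). Of 22 Wnt antagonists and targets, Dkk2 (0.99, adjusted p = 0.0145) and Kremen1 (0.35, adjusted p = 0.0473) were higher and Sp8 was lower. Dkk2 failed without mandible array 1 or maxilla array 2 (adjusted p = 0.0807 and 0.0794), and Kremen1 without any 1 array except maxilla array 1 (adjusted p up to 0.194). Of 19 Notch genes 0 were higher and 2 lower, the target Hey1 (-0.92, adjusted p = 0.00197) and the glycosyltransferase gene Mfng (-1.22, adjusted p = 0.00279). Of 40 guidance genes 1 was higher, Flrt3 (0.84, adjusted p = 0.00276), and 1 lower, Slit2 (-0.57, adjusted p = 0.0387, lost without any 1 array except mandible array 1). Of 40 collagen and matrix genes 2 were higher, Kera and Dcn (1.30, adjusted p = 0.012; 1.00 and adjusted p = 0.075 without maxilla array 2), and 2 lower, Col8a1 (-1.35, adjusted p = 0.00152) and Mfap4 (-0.35, adjusted p = 0.0389, lost without 5 of the arrays). Without maxilla arrays 3 and 4, neither Kera nor Dcn was called, nor Slit2, and without mandible array 1 as well Dkk2 was also lost. Without maxilla arrays 3 and 4, the members higher in the mandible also numbered 2 in the Hox list, 1 in the LIM homeobox list and 0 in each of the inner ear, bone, hedgehog, neural crest mesenchyme, proliferation and hypoxia lists. The lower members there were 1 in the LIM homeobox list and 2 among the Wnt antagonists and targets.

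The other families fixed as lists had few calls each, though often a larger share than over all genes tested (2.33% higher, 3.07% lower). Of 17 LIM homeobox and Lmo genes, Ldb2 (0.70, adjusted p = 0.000527) and Lmx1a (0.58, adjusted p = 0.0323) were higher and Lhx2 and Lmo1 (-1.09, adjusted p = 0.0256) lower. Lmx1a failed without any single array other than maxilla array 2 (adjusted p up to 0.0902), and Lmo1 without mandible array 1 or maxilla array 1 or 3 (adjusted p = 0.136, 0.0535 and 0.111). Of 11 T-box genes, Tbx4 and Tbx5 (0.52, adjusted p = 0.0484) were higher and Tbx22 lower, and Tbx5 failed without any single array other than mandible array 1 (adjusted p up to 0.166). Of 11 Eya, Dach and sine oculis homeobox genes 0 were higher and 2 lower, Six3 and Eya2 (-1.47, adjusted p = 5.07e-06). Of 13 Iroquois, Meis and Pbx genes 0 were called, with a median of 0.33. Of 13 Alx, Pitx and Pax genes, Pitx1 and Pitx3 were higher and Alx1, Uncx and Pax3 lower. Of 16 retinoic acid genes, Cyp26a1 and the receptor gene Rxrg (1.23, adjusted p = 0.00609) were higher and Aldh1a3 was lower.

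The other cell type lists had few calls or 0, though in some a larger share was called than over all genes tested (5.4%). Tooth mesenchyme (13 tested), pharyngeal pouch and thyroid (8) and eye and lens genes (7) had 0 called. Of 11 salivary and tongue epithelium genes, Sox2 and Shh were lower, and of 9 inner ear genes, Dlx5, Otor and Lmx1a were higher and Gata3 lower. Of 11 Schwann and glia genes 1 was lower, the myelin gene Mbp (-0.89, adjusted p = 0.000246), and of 13 smooth muscle genes 1 was higher, Des. Endothelial (22 tested), erythroid (11), macrophage (21) and melanocyte (8) genes had 0 called in either direction, with medians of -0.06, 0.11, 0.05 and 0.12. Of 15 neural crest mesenchyme genes, Alx1 was lower and Pdgfra was higher by 0.31 (adjusted p = 0.00904, and 0.0571 without maxilla array 3). The list was bright on every array, with means of 11.41 to 11.55 in the mandible and 11.64 to 12.05 in the maxilla. Of 19 proliferation genes 1 was higher, Mcm3 (0.22, adjusted p = 0.0399), and of 18 hypoxia and glycolysis genes 1, Pdk1 (0.40, adjusted p = 0.0163). Mcm3 failed without any 1 array except maxilla array 3, and Pdk1 without mandible array 2 or maxilla array 3 or 4.

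**Figure D3:**
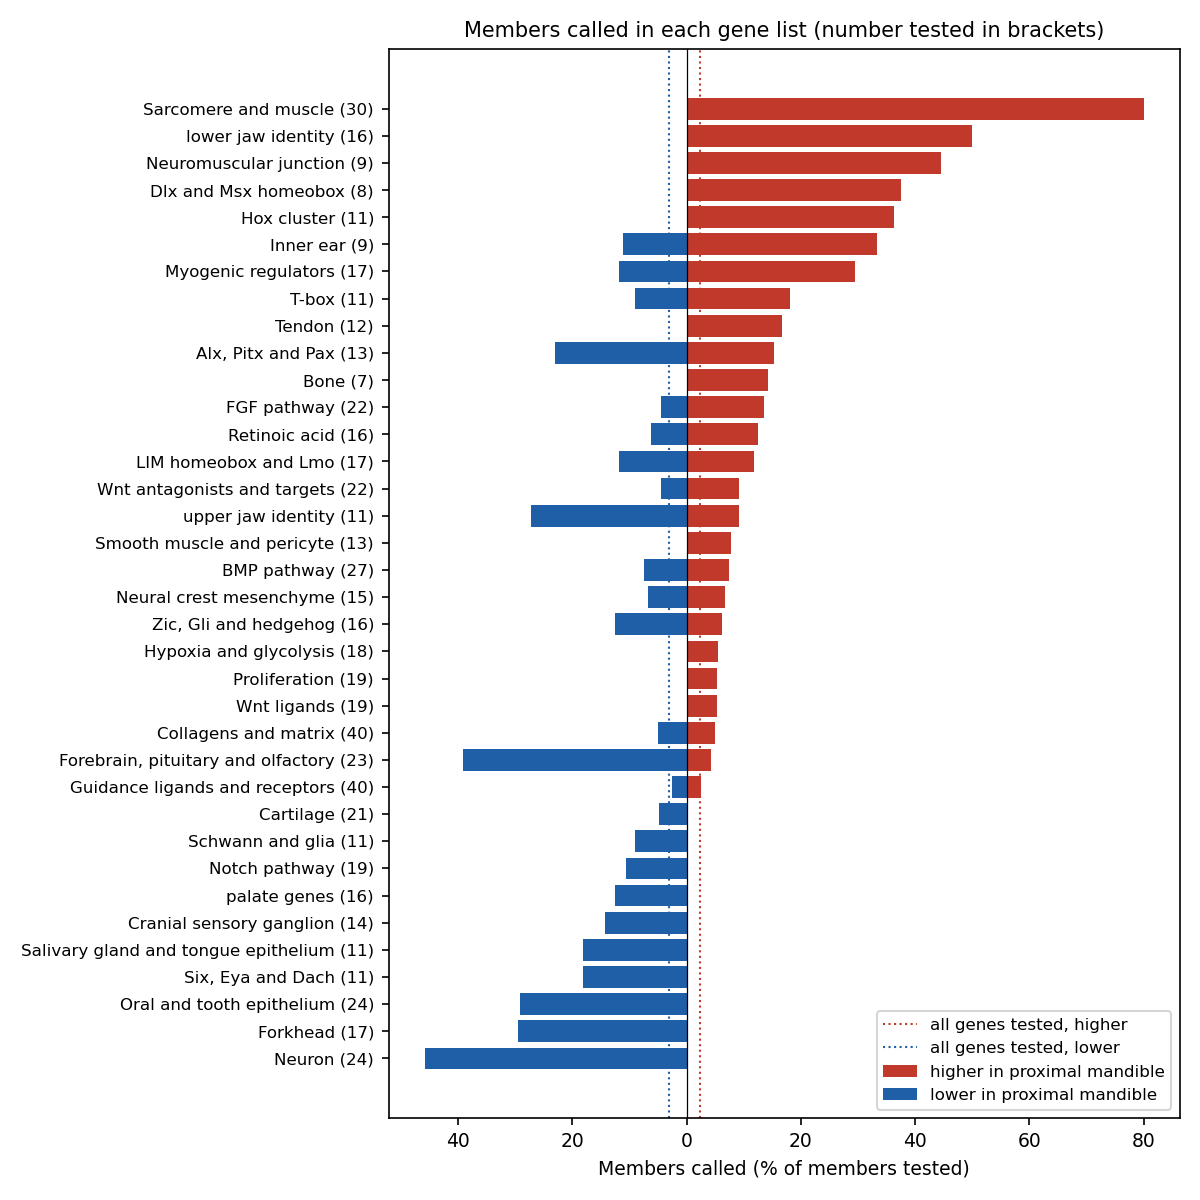
Share of tested members called higher (red, to the right) or lower (blue, to the left) in the proximal mandible for the gene lists with at least 1 call, with the number tested in brackets. Dotted lines mark the shares over all 13705 genes, 2.33% higher and 3.07% lower, and the sarcomere list stands farthest to the right with 24 of 30 members.

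The same jaw comparison at the distal end of the control jaws, on 8 other arrays, called 202 genes (1.47%), 54 higher in the mandible (0.394%) and 148 lower (1.08%). Both ends called 109 genes, all with the same sign, which was 14.7% of the proximal calls and 54.0% of the distal calls. Of the 319 genes higher in the proximal mandible 20 were called higher distally and 237 had a distal difference above 0, with a median of 0.13. Of the 421 lower genes 89 were called lower distally and 380 had a distal difference below 0, with a median of -0.41. Of all proximal calls 83.4% had the same sign distally, against 62.5% of all genes tested. The labels do not say whether the ends of a jaw with 1 number came from 1 embryo.

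Named genes fell on both sides. Hand2 differed by 5.00 distally (adjusted p = 2.36e-06) and Pitx1 by 2.71 (adjusted p = 4.64e-06), and both were called at each end. Otx2 (-4.85), Lhx2 (-4.39), Sp8 (-4.12), Neurod1 (-3.94), Neurog1 (-3.57) and Gata2 (-3.33) were also called distally. The sarcomere list had 0 members called distally and a median of 0.21, and Dlx5 and Dlx6 differed by 0.55 and 1.38 distally (adjusted p = 0.62 and 0.17). A call at 1 end and not at the other does not show that the ends differ, so the difference itself was tested. By that test 1 of the 30 sarcomere genes was called, and neither Dlx5 nor Dlx6 was.

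**Figure D4:**
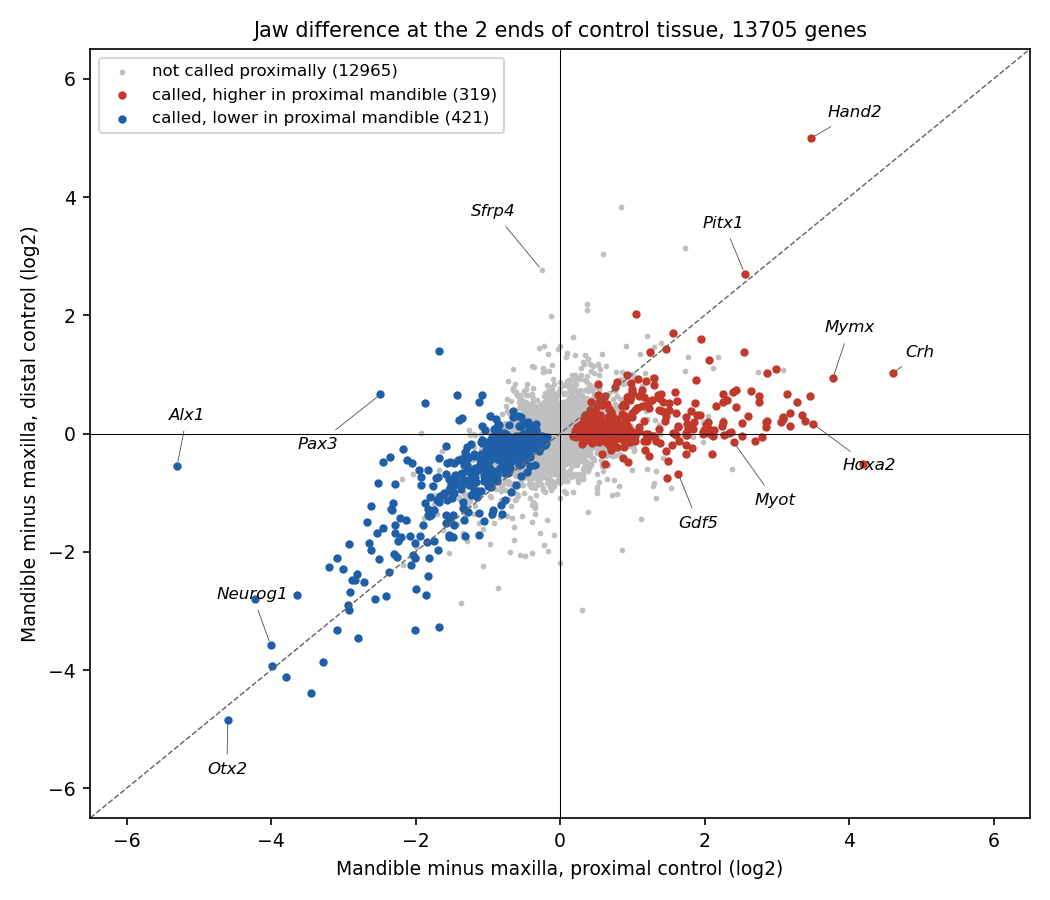
Mandible minus maxilla in log2 units for 13705 genes, proximal control tissue on the horizontal and distal control tissue on the vertical axis, with genes called proximally in red (319 higher) or blue (421 lower) and the dashed line marking equal differences. Genes such as Otx2 and Pitx1 lie near the line, Hand2 lies above it and Crh, at 1.02 distally, lies below it. The red points have a median of 0.13 on the distal axis, and Alx1 lies at -0.54 there.

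The jaw difference itself differed between the ends for 42 genes (0.306%), and 919 (6.71%) had an unadjusted p below 0.05. The interaction, the proximal minus the distal jaw difference, was above 0 for 29 genes (0.212%) and below 0 for 13 (0.0949%). Its sign does not give the end with the larger difference. Pde1a, with an interaction above 0, differed by -0.85 proximally and -2.6 distally. Of the 42 genes, 31 were also called between the proximal jaws, 23 of them higher in the mandible. Alx1 had the largest interaction (-4.76, adjusted p = 0.000877). Its group means were 6.85 (proximal mandible), 12.15 (proximal maxilla), 12.33 (distal mandible) and 12.87 (distal maxilla), so the proximal mandible alone was low. Crh showed the opposite, with 8.72 in the proximal mandible and 4.11, 4.99 and 3.97 in the other groups (interaction 3.59, adjusted p = 0.0353).

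The interaction compares jaw differences, and the distal mandible was not tested against the proximal mandible. Gdf5 (2.31, adjusted p = 0.000318), Dlx4os (2.34, adjusted p = 0.00963), 3110099E03Rik (2.81, adjusted p = 0.0119) and the Z disc gene Myot (2.56, adjusted p = 0.0417) also had an interaction above 0. Dlx4 (1.88, adjusted p = 0.0297), Gbx2 (2.09, adjusted p = 0.0119), Chrna1 (2.06, adjusted p = 0.0417), Chrng (1.74, adjusted p = 0.0353), Rapsn (1.56, adjusted p = 0.0204) and Mybpc1 (2.16, adjusted p = 0.0396) were of the same kind. Bmper, a lower jaw list member not called proximally, was lower in the distal mandible (-1.33, adjusted p = 0.00352). Its interaction was 1.71 (adjusted p = 0.0347). The secreted Wnt antagonist gene Sfrp4 (-3.01, adjusted p = 0.00423) and the synaptic organiser gene Cbln4 (-2.99, adjusted p = 0.0447) had their jaw difference at the distal end, where they were higher in the mandible by 2.76 and 3.84. The receptor tyrosine kinase gene Ret (-2.38, adjusted p = 0.0353) and 6330415B21Rik (-3.07, adjusted p = 0.0494) completed the largest negative interactions. The count of 42 was 12 to 54 when single arrays were left out and 1 without number 3.

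In mutant proximal tissue, on 8 further arrays, 420 genes differed between the jaws (3.06%), 172 higher in the mandible (1.26%) and 248 lower (1.81%). Of the 740 control calls, 298 (40.3%) were also called in the mutant, which was 71.0% of the mutant calls, and all 298 had the same sign. The sign was shared by 730 of the 740 control calls (98.7%), against 68.8% of all genes tested. The median mutant difference was 0.62 for the genes higher in the control mandible and -0.65 for those lower.

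Alx1 differed by -5.93 in the mutant, Hand2 by 3.58, Pitx1 by 2.12, Dlx5 by 2.29, Dlx6 by 2.94 and Otx2 by -3.94, each called there. The sarcomere list had 8 of 30 members called higher in the mutant, with a median of 2.03. Crh differed by 1.93 in the mutant (adjusted p = 0.0451) and by 4.61 in the control. Shh differed by -0.99 in the mutant and did not pass (adjusted p = 0.193).

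The test of the difference between genotypes called 1 gene of 13705 (0.0073%) with limma, and 298 (2.17%) had an unadjusted p below 0.05. That gene was Lhfpl3, a tetraspan membrane protein gene (1.54, adjusted p = 0.0135). It was below the filter level on all 8 control arrays and was not called between the control jaws (-0.20, adjusted p = 0.699), while its mutant difference was 1.35. No gene was called (0) without control mandible array 1, control maxilla array 1, mutant mandible array 3 or mutant maxilla array 1, nor in a fit of the compared arrays alone. Neither Crh (-2.68) nor Shh (1.36) passed this test (both with an adjusted p of 0.9996).

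**Figure D5:**
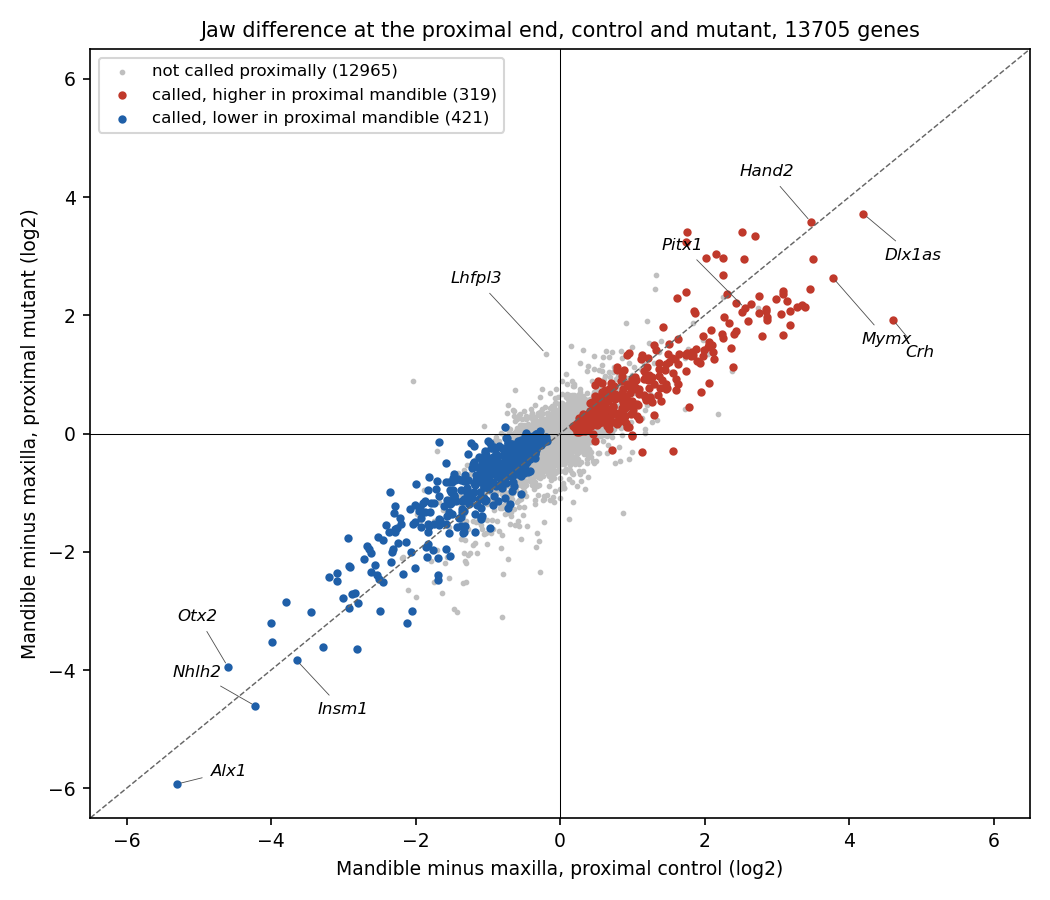
Mandible minus maxilla in log2 units for 13705 genes at the proximal end, control tissue on the horizontal and mutant tissue on the vertical axis, coloured by the control calls (319 higher in red, 421 lower in blue), with the dashed line marking equal differences. Of the coloured genes 730 keep their sign, Crh lies below it, and Lhfpl3 is the gene called for a difference between genotypes.

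Some called genes were neighbours on their chromosome in the RefSeq gene order. Of 13656 adjacent pairs of tested genes, both were higher in the mandible in 18 pairs, both lower in 37, and called in opposite directions in 13. Single genes were called higher in 2.33% and lower in 3.07%. Whether neighbours were called together more often than these shares give was not tested. The longest runs had 3 genes. Dlx6os1, Dlx6 and Dlx5 formed one, and Mybph, Myog and Ppfia4 another, both higher in the mandible. Rbm47, Apbb2 and Uchl1, and Zdhhc21, Frem1 and Ttc39b, formed runs that were lower. Pairs with both genes called the same way included Dlx4 with Dlx4os, Hoxc4 with Hoxc5, and Krt8 with Krt18. Antisense and overlapping genes such as Dlx6os1 and Dlx4os can share transcribed sequence with their neighbours, and the probe sets here were not placed on the genome, so their signals may not be separate.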

How the data were processed

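Affymetrix mouse arrays were used for total RNA of 8 groups of 4 arrays (mandible and maxilla, distal and proximal, control and mutant), and the 8 control proximal arrays make up the comparison described here. The deposited values are log2 expression levels made by the authors with RMA, per the submitters' processing notes; the RMA version and genome build are not given in the sources used here. Of 45101 probe sets, 34945 paired with 1 gene symbol in the platform annotation. Probe sets above the 40th percentile of their array on at least 4 of the 32 arrays were kept, and the one with the highest mean stood for its gene. Differences were estimated with limma 3.58.1 (R 4.3.3), fitting the 8 group means with moderated variances (24 residual degrees of freedom) and Benjamini-Hochberg adjustment over 13705 genes at a threshold of 0.05; a gene named as rising, falling, higher or lower passed it. The 2 interaction tests used the same fit. In simulated data 92% of genes changed by 1 log2 unit and 99% of those changed by 2 were recovered, with 8.17% false calls. The simulation used independent normal noise with the same spread in every group for a gene. It had no outlying arrays, shared array effects or compressed dim signal, so recovery in the real data may be lower.

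The members and gene lists were chosen with earlier results of these data known. Genes named were the 20 largest differences in each direction among called genes whose groups did not overlap, the 5 largest interactions per direction, up to 6 members of each list by adjusted p, and every member of the lower jaw, upper jaw, and Dlx and Msx lists; a few others, such as Acta1, Sp7, Hes5, Xist and Eif2s3y, were named after their values were seen. Of 800 listed symbols 664 were tested. Alternatives changed the filter, scaling, probe set choice, arrays fitted, blocking and weights, or left out arrays. With arrays and no counts, the number of arrays limits the precision. Upstream sequences and gene order came from RefSeq (GRCm38.p6).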

Additional observations from a re-analysis of the deposited data

Results flagged for a closer look

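Among the 288 named genes, single arrays stood far from the other 3 of their group in 45 of 576 groups of 4 values (7.81%). The measure was the gap to the nearest array against the whole range, where chance gives about 5%. The named genes were partly chosen by their values and many vary together, so the 5% is only a rough guide. Mandible array 1 stood above the other 3 for Col1a1 (13.04, others 11.80 to 11.98), Dkk2 (12.34, others 11.48 to 11.54), Fmod (9.74, others 8.18 to 8.41), Hhip (8.05, others 7.48 to 7.54), Ifitm5 (11.70, others 7.41 to 7.54), Ihh (7.62, others 6.57 to 6.72), Inhba (10.24, others 9.40 to 9.54), Mylk (10.08, others 9.20 to 9.32), Notch3 (11.47, others 11.12 to 11.17), Pmp22 (12.47, others 11.65 to 11.71), S100b (8.12, others 6.90 to 7.05), Sfrp4 (8.0, others 7.03 to 7.17), Slit2 (11.72, others 10.98 to 11.04), Smpd3 (10.91, others 7.86 to 8.36), Sp7 (11.49, others 8.82 to 9.16) and Wnt9a (8.91, others 8.30 to 8.34) and below the other 3 for Hoxa2 (4.95, others 8.62 to 9.34). Mandible array 2 stood above the other 3 for Cd14 (7.13, others 6.92 to 6.95), Dlx6os1 (11.49, others 10.64 to 10.75), Oca2 (6.97, others 6.77 to 6.80) and Xist (13.53, others 6.53 to 6.84) and below the other 3 for Eif2s3y (3.41, others 10.15 to 10.52), Myl4 (10.56, others 11.43 to 11.45), Mylpf (11.24, others 11.79 to 11.85) and Tnnc1 (11.13, others 11.82 to 11.90). Mandible array 3 stood above the other 3 for Nr2f2 (13.32, others 13.10 to 13.13). Mandible array 4 stood above the other 3 for Gata2 (8.31, others 8.06 to 8.09) and below the other 3 for Meox2 (11.01, others 11.33 to 11.37).

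Maxilla array 1 stood above the other 3 for Bmp2 (10.32, others 9.77 to 9.83) and Fmod (9.20, others 7.67 to 7.90). Maxilla array 2 stood below the other 3 for Eif2s3y (3.30, others 10.03 to 10.27), Meis3 (8.15, others 8.43 to 8.47), Nr2f1 (11.64, others 12.43 to 12.47), Ptprc (6.79, others 7.82 to 7.94), Tbx15 (8.32, others 10.96 to 11.32) and Tbx18 (7.20, others 10.35 to 11.00). Maxilla array 3 stood above the other 3 for Hes5 (10.20, others 6.22 to 6.62). Maxilla array 4 stood below the other 3 for Aldh1a3 (8.38, others 10.71 to 10.96), Dlx6os1 (6.48, others 9.24 to 9.78), Efnb3 (10.94, others 11.15 to 11.18), Lhx2 (7.90, others 10.88 to 11.45), Otx2 (5.74, others 9.95 to 10.59), Pitx1 (8.83, others 10.22 to 10.32), Six3 (7.50, others 9.23 to 9.52) and Sp8 (5.40, others 9.42 to 10.17).

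Mandible array 1 included the osteoblast genes Sp7, Ifitm5, Smpd3 and Col1a1 and the hypertrophic cartilage gene Ihh among its high values, and maxilla array 4 included the anterior head genes Otx2, Sp8, Lhx2, Six3 and Pitx1 among its low ones. Each array was also left out in turn, and the outcome is given above mainly for genes whose call was then lost.

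The jaw difference depended on the end of the jaw in an interaction test for Crh (3.59), 3110099E03Rik (2.81), Myot (2.55), Dlx4os (2.34), Gdf5 (2.32), Alx1 (-4.76), 6330415B21Rik (-3.07), Sfrp4 (-3.01), Cbln4 (-2.99) and Ret (-2.38), with limma adjusted p-values of 0.000318 to 0.0494. It depended on genotype for Lhfpl3 (1.54, adjusted p = 0.0135), the only call of that test, and 0 genes were called without control mandible array 1, control maxilla array 1, mutant mandible array 3 or mutant maxilla array 1, or on the compared arrays alone.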

How the results depend on the processing

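The count of 740 genes between the proximal control jaws stayed within 1.5 times of itself (567 to 1027) without the filter, with a stricter filter, other scalings, the probe set of largest variance, a replicate block, an intensity trend, without number 1 or 4, and without maxilla arrays 3 and 4, and it was 557 to 716 when single arrays of the compared groups were left out. It was 412 in a fit of the 8 compared arrays alone (54.9% of calls higher in the mandible, against 43.1%), 442 there with the replicate block (60.6% higher), 1155 with number 1 as a covariate, 2625 with array weights, and 361 and 267 without number 2 and 3.

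The distal count of 202 was 115 on the compared arrays alone, 99 there with the replicate block, 304 with the block in the full fit, 351 without number 1, 374 with it as a covariate, 1197 with weights, and 66, 69 and 94 without numbers 2, 3 and 4 (130 to 231 without single arrays). The mutant count of 420 was 225 on the compared arrays alone, 203 there with the block, 664 with the covariate, 3539 with weights, and 230, 127 and 192 without numbers 2, 3 and 4 (260 to 516 without single arrays).

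For the jaw by end interaction the count of 42 was 24 with the probe set of largest variance, 8 on the compared arrays alone, 19 there with the block, 122 without number 1, 101 with the covariate, 730 with weights, and 6, 1 and 7 without numbers 2, 3 and 4 (12 to 54 without single arrays). For the jaw by genotype interaction the count of 1 was 3 under quantile normalization, the probe set of largest variance, the replicate block, number 1 left out or as a covariate, and maxilla arrays 3 and 4 left out. It was 0 on the compared arrays alone, with or without the block, and without number 2, 3 or 4, and 155 with weights (0 to 3 without single arrays). The causes of these changes were not tested.

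The direction turned for Pax6 (-3.21 under the stricter filter and with the probe set of largest variance) and, with the latter, for Kremen1 (-0.0215), Mcm3 (-0.0219) and Pdk1 (-0.32), each by a change of probe set.

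The replicate numbers were not taken as pairing, since the labels do not say that they mark it. The deviations of same-numbered arrays correlated at 0.54, 0.24, 0.30 and -0.11, and 2 of 4 numbers correlated best with their own partner. Any structure shared by a number thus stays in the spread of the main fit. With the replicate block 1027 genes were called between the proximal control jaws. The alternatives without number 2, 3 or 4 and without maxilla arrays 3 and 4 or mandible array 1 were chosen after seeing the data. Genes near the filter level have compressed differences on these arrays.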
